A study of Mus musculus with 8 samples.

Results

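The genes described here are 10 genes of the NRF2 antioxidant response, taken by symbol from a table of 77981 mouse genes: Nfe2l2, Keap1, Nqo1, Hmox1, Gclc, Gclm, Txnrd1, Srxn1, Slc7a11 and Prdx1. All 10 symbols were found, each under 1 Ensembl identifier. RNA came from mouse kidney labelled IMCD (for inner medullary collecting duct), and was sequenced in 4 libraries of the genotype AVP-flox and 4 of the genotype AVP-flox;Cre. In both groups loxP sites flank the vasopressin gene Avp and all mice received tamoxifen, so the groups differ by the Cre recombinase. The labels name no promoter or cell type that drives Cre, and give no strain, age or sex. By Xist and Y-linked transcripts, 1 of 4 AVP-flox and 2 of 4 AVP-flox;Cre libraries had a male pattern. No library analysed here has Cre with intact Avp. Nor do the labels say whether each replicate is its own animal. The p-values below measure only the spread among these 8 libraries, which may be technical.

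NRF2, encoded by Nfe2l2, is a transcription factor that switches on genes against oxidants and electrophiles. In resting cells KEAP1 binds NRF2 and hands it to a CUL3 ubiquitin ligase for destruction. Oxidants and electrophiles modify cysteines of KEAP1, NRF2 then builds up, pairs with a small MAF protein and binds antioxidant response elements near its targets. The targets make glutathione, reduce thioredoxin and peroxiredoxins, reduce quinones and break down heme. Much of the control of NRF2 acts on the protein, which was not measured here. The inner medulla, where the samples come from by their label, is hypertonic and poor in oxygen.

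The regulatory sequence just upstream of the gene start is shown for the 4 members whose expression differed between the groups, because NRF2 acts through such DNA. Of the 10 members, 8 matched the RefSeq table of promoters (build GRCm38.p6), all but Gclc and Hmox1. The 250 bases before each start were searched on both strands for TGACNNNGC, the core of the antioxidant response element, which reads GCNNNGTCA when it lies on the other strand. Capitals mark a match.
Nfe2l2 (chr2:75704664-75704913, strand minus): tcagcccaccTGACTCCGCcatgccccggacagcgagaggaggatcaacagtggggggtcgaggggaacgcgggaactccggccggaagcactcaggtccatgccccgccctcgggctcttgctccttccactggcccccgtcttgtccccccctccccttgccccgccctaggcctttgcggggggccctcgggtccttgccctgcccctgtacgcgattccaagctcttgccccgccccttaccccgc
Gclm (chr3:122245307-122245556, strand plus): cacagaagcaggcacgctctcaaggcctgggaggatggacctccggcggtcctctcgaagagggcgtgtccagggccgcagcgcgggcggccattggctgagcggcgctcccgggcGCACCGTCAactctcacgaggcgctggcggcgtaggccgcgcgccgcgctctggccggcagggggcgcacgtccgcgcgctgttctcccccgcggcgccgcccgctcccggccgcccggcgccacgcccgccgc
Prdx1 (chr4:116685349-116685598, strand plus): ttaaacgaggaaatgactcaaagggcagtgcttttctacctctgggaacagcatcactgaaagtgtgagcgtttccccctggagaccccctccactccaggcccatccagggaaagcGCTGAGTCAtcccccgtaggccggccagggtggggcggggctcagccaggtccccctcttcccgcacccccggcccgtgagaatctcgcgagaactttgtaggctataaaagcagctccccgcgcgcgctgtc
Nqo1 (chr8:107403206-107403455, strand minus): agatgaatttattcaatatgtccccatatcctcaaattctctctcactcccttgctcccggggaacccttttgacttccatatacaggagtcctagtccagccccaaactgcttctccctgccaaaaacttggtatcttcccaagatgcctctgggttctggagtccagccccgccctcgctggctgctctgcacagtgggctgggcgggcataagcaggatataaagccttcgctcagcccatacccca

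Nfe2l2 held a match that began 240 bases before the start, Gclm 1 that began 134 bases before it, and Prdx1 1 that began 133 bases before it. The Prdx1 match lies on the opposite strand of the gene, as does that of Gclm. The Nqo1 window held no match. Of the 8 members in the table, 4 had a match in at least 1 window, Txnrd1 being the other one, with a match in 1 of its 3 windows. Of all 27025 genes in the same table, 11.5% had a match, as did 12 of 59 genes of the wider pathway list given further on (20.3%). Such a match is a run of letters and not a binding site shown by these data. Of the 3 genes shown with a match, Nfe2l2 and Gclm were lower and Prdx1 was higher in AVP-flox;Cre, as given next.

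Avp itself ranged from 0 to 0.24 TPM in AVP-flox libraries and from 0 to 0.27 TPM in the Cre-bearing ones. It is made in the hypothalamus, so kidney RNA is no check of the deletion. Some libraries stood apart over the whole transcriptome. AVP-flox;Cre 2 listed 33576 genes above 0 TPM, the others 50951 to 58232. AVP-flox;Cre 4 had 23412 genes at 1 TPM or more against 16608 to 20765 elsewhere. AVP-flox 2 had 2.35% of its TPM in mitochondrially encoded transcripts, against 3.75% to 4.42% in AVP-flox 1, 3 and 4. The AVP-flox;Cre libraries had 2.40% to 2.85%, so this share sets AVP-flox 2 apart from its own group only. Results that turn on these 3 libraries are given with and without them.

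Levels are in TPM, a transcript abundance scaled to gene length and to 1 common total in each library. The number of reads is unknown, so no counting error or detection limit is given. Fold changes are on the log2(TPM + 1) scale, AVP-flox;Cre minus AVP-flox, from limma over all 19043 genes whose mean reached 1 TPM. A gene is called changed at a Benjamini-Hochberg adjusted p under 0.05. An exact permutation test, two-sided, compared mean TPM, and 0.0286 is the smallest p that 4 against 4 libraries allow. In bulk samples, fewer cells of a type and less RNA per cell cannot be told apart.

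Of the 10 genes, 9 passed the filter on low values. Of these 9, 3 fell (Nfe2l2, Gclm and Nqo1), 1 rose (Prdx1) and 5 did not pass the test. Over all genes tested, 27.3% were called, 14.2% lower and 13.1% higher. The median log2 fold change was -0.24 over the 9 members and -0.01 over all genes tested. The groups did not overlap for 6 of the 9 members, against 29.5% of all genes tested. Without the 3 libraries that stood apart the 4 calls held, at -0.49 for Nfe2l2 (limma adjusted p = 0.0183), -0.87 for Gclm (0.0239), -1.02 for Nqo1 (0.00357) and 0.45 for Prdx1 (0.00848).

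**Figure D1:**
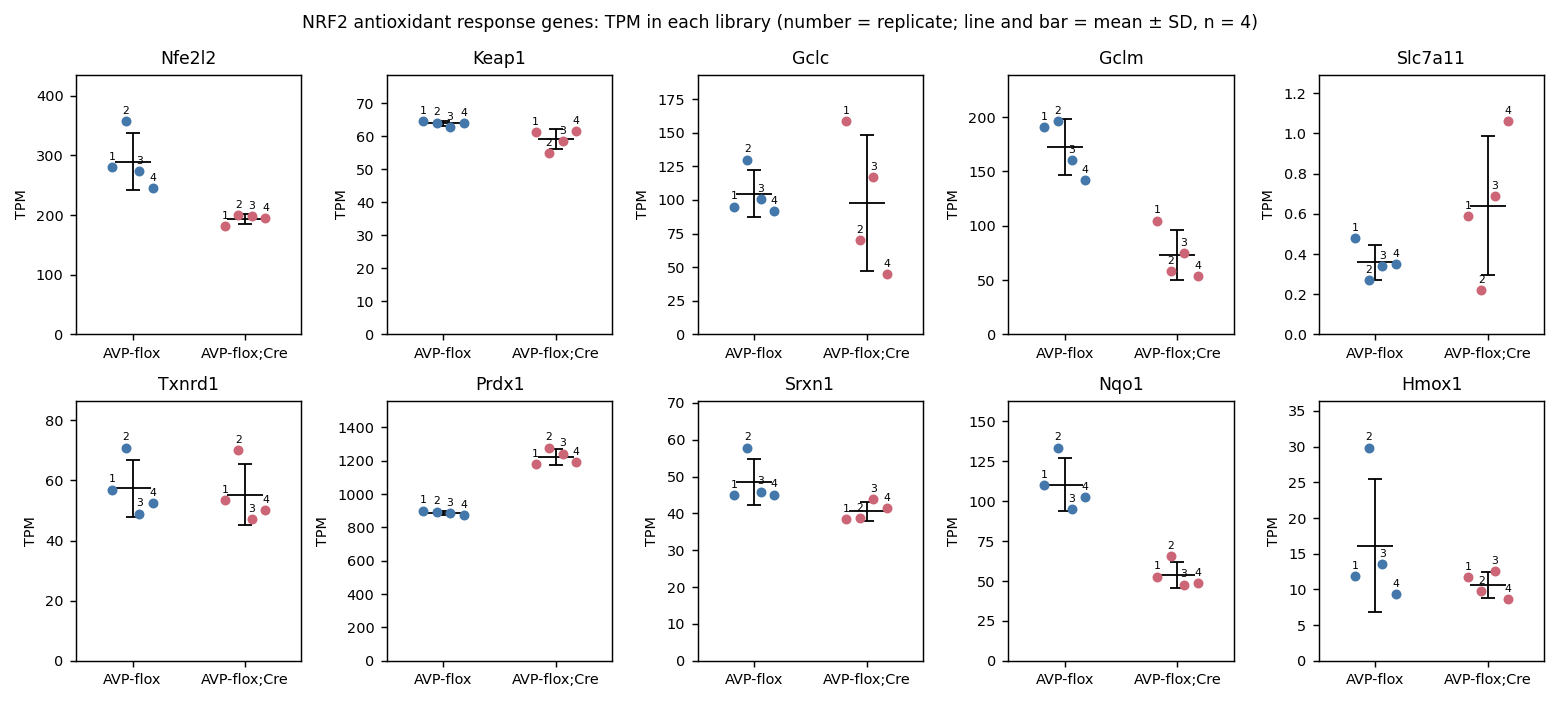
Level of each of the 10 genes in TPM (y axis, from 0) in the 4 AVP-flox libraries (blue) and the 4 AVP-flox;Cre libraries (red). Points are libraries numbered by replicate, and the line and bar are the mean and SD. Nfe2l2, Gclm and Nqo1 sit lower and Prdx1 higher in every AVP-flox;Cre library, while Gclc spreads from 45.0 to 158 TPM there.

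Nfe2l2 (ENSMUSG00000015839), the transcription factor itself, stood at 281, 357, 274 and 245 TPM in AVP-flox 1 to 4 and at 181, 200, 198 and 194 TPM in AVP-flox;Cre 1 to 4. The groups did not overlap, and AVP-flox 2 was the highest of the 8. The mean went from 289 ± 48 to 193 ± 8 TPM (SD, n = 4 per group), which is 1.50-fold lower. The log2 fold change was -0.57 (SE 0.10, limma adjusted p = 0.0035), and the exact permutation p = 0.0286. Without AVP-flox 2 the fall was -0.46 (adjusted p = 0.00243), so the call did not rest on that library.

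Keap1 (ENSMUSG00000003308), the sensor that marks NRF2 for destruction, differed little. It stood at 64.5, 64.2, 62.8 and 64.1 TPM in AVP-flox 1 to 4, and in AVP-flox;Cre 1 to 4 at 61.2, 54.9, 58.6 and 61.5 TPM. The highest AVP-flox;Cre library was just under the lowest AVP-flox library. The log2 fold change of -0.11 did not pass the test (95% interval -0.26 to 0.03, limma adjusted p = 0.230). As levels per length, Nfe2l2 exceeded Keap1 in all 8 libraries. The ratio of Nfe2l2 to Keap1 was 4.35, 5.56, 4.36 and 3.82 in AVP-flox, against 2.96, 3.64, 3.37 and 3.16 in AVP-flox;Cre. These ratios did not overlap between the groups. They are given as a description with no test.

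**Figure D2:**
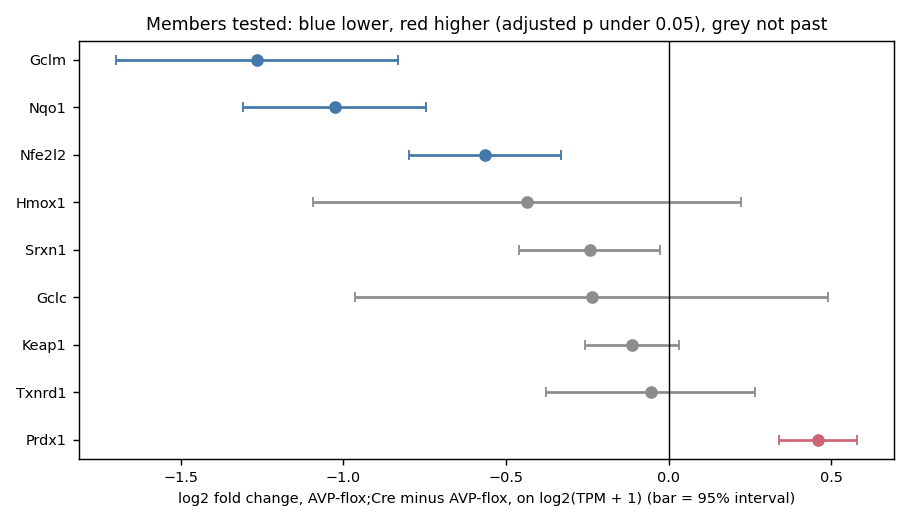
Log2 fold change of the 9 members tested (x axis, AVP-flox;Cre minus AVP-flox on the log2(TPM + 1) scale), with 95% intervals. Gclm (-1.26), Nqo1 (-1.03) and Nfe2l2 (-0.57) passed the test as lower and Prdx1 (0.46) as higher. The grey genes did not pass, and the intervals of Gclc and Hmox1 are the widest.

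Glutathione synthesis begins with glutamate-cysteine ligase, in which Gclc encodes the catalytic subunit and Gclm the modifier subunit that raises its activity. Gclm (ENSMUSG00000028124) stood at 191, 196, 160 and 142 TPM in AVP-flox 1 to 4, and in AVP-flox;Cre 1 to 4 at 105, 58.4, 75.2 and 53.8 TPM. Every AVP-flox;Cre library was under every AVP-flox library, and AVP-flox;Cre 1 was the closest to them. The mean was 2.36-fold lower, at 73.0 ± 23.0 against 172 ± 26 TPM (SD, n = 4 per group). This was the largest log2 fold change among the members, at -1.26 (SE 0.19, limma adjusted p = 0.00131, exact permutation p = 0.0286).

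Gclc (ENSMUSG00000032350) showed no such separation. It stood at 95.0, 130, 101 and 91.9 TPM in AVP-flox 1 to 4, and in AVP-flox;Cre 1 to 4 at 158, 70.3, 117 and 45.0 TPM. AVP-flox;Cre 1 was thus above all AVP-flox libraries and AVP-flox;Cre 2 and 4 were under all of them. The coefficient of variation was 51.5% in AVP-flox;Cre, against 16.7% in AVP-flox. The log2 fold change of -0.24 did not pass the test (95% interval -0.96 to 0.49, limma adjusted p = 0.638, exact permutation p = 0.829). Without AVP-flox;Cre 4 its sign turned, to 0.08 (adjusted p = 0.846), and it was 0.50 (adjusted p = 0.0552) without the 3 libraries that stood apart.

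The groups also stood apart in the balance of the subunit transcripts. The ratio of Gclc to Gclm was 0.497, 0.663, 0.629 and 0.646 in AVP-flox, against 1.51, 1.20, 1.56 and 0.836 in AVP-flox;Cre. Gclm was the more abundant transcript in all 4 AVP-flox libraries and in AVP-flox;Cre 4, and Gclc in AVP-flox;Cre 1, 2 and 3. No ratio was shared between the groups, and no test was run on it.

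Both genes have GC-rich 5' ends, with 78% GC for Gclc and 73% for Gclm in the first 300 nt of the longest annotated transcript, against a median of 58.3% over the tested genes with a value. Genes of that kind were lower as a class in some AVP-flox;Cre libraries. Over 1650 genes above 70% GC expressed at 10 TPM or more in AVP-flox, the median log2 difference from the AVP-flox mean was -0.06, -0.23, -0.14 and -0.18 in AVP-flox;Cre 1 to 4, compared with -0.02 to 0.04 among AVP-flox libraries. With each library corrected for its trend with this GC content, the fall of Gclm was -1.16 (limma adjusted p = 0.00125), close to its uncorrected size, and the value for Gclc was -0.03 (adjusted p = 0.957). Keap1 (72.3% GC, -0.02) and Srxn1 (74% GC, -0.12) also had smaller values after that correction, which was chosen after seeing the data.

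**Figure D3:**
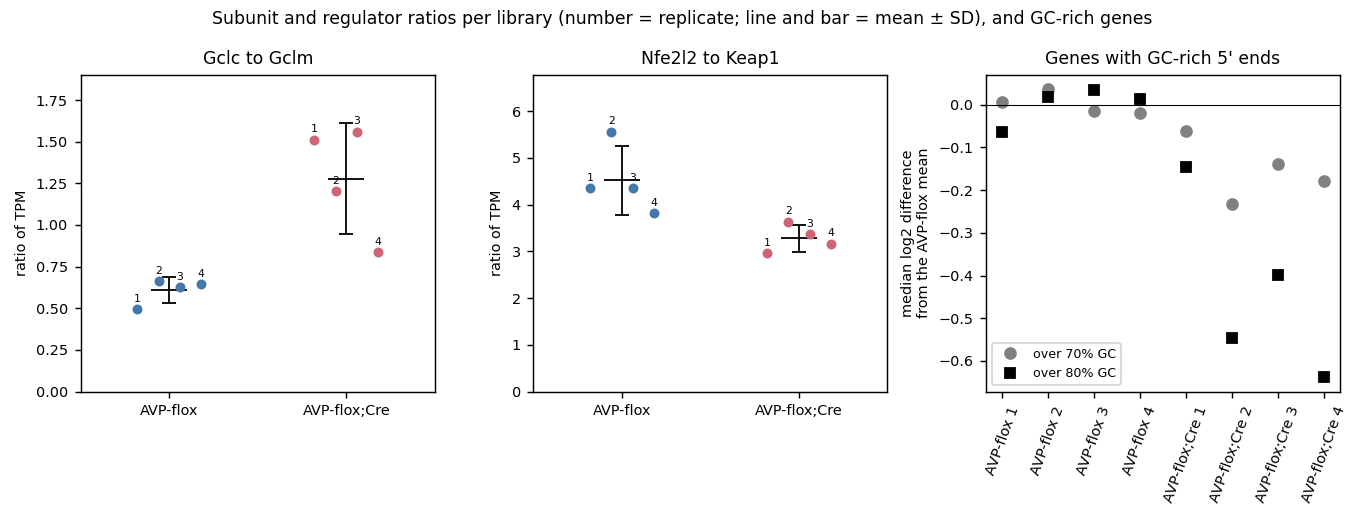
Ratio of Gclc to Gclm and of Nfe2l2 to Keap1 in each library (left and middle, ratio of TPM, numbers are replicates, line and bar are mean and SD), and the median log2 difference from the AVP-flox mean of 1650 genes above 70% GC and 114 genes above 80% GC in the first 300 nt of the transcript (right). The ratios do not overlap between the groups, and the GC-rich genes are lower in AVP-flox;Cre 2, 3 and 4 than in AVP-flox;Cre 1.

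Slc7a11 (ENSMUSG00000027737) encodes xCT, the subunit of the cystine importer that feeds glutathione synthesis, and was the lowest of the 10. It was listed at 0.48, 0.27, 0.34 and 0.35 TPM in AVP-flox 1 to 4, and in AVP-flox;Cre 1 to 4 at 0.59, 0.22, 0.69 and 1.06 TPM. The groups overlapped, and its mean under 1 TPM kept it out of the test. With no filter the log2 difference was 0.25 (limma adjusted p = 0.661). A processed pseudogene annotated within the gene, Gm37826, was listed at 0 to 2.33 TPM, so values this low are uncertain. Slc3a2, the partner chain of xCT that also serves other amino acid transporters, stood far higher, at 123 ± 15 and 131 ± 12 TPM (log2 fold change 0.09, adjusted p = 0.562).

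In the thioredoxin system, Txnrd1 reduces thioredoxin with NADPH, thioredoxin reduces the peroxide-removing PRDX1, and SRXN1 restores overoxidized peroxiredoxins. Prdx1 (ENSMUSG00000028691) was the most abundant of the 10 and the one that rose. It stood at 901, 894, 887 and 873 TPM in AVP-flox 1 to 4, and in AVP-flox;Cre 1 to 4 at 1178, 1278, 1243 and 1193 TPM. The gap between the groups was wide against a spread of 889 ± 12 and 1223 ± 46 TPM (SD, n = 4 per group). The rise was 1.38-fold, with a log2 fold change of 0.46 (SE 0.05, limma adjusted p = 0.000306, exact permutation p = 0.0286). Its pseudogene Prdx1-ps, which could share reads with it, was listed at 0 to 0.05 TPM.

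Srxn1 (ENSMUSG00000032802) stood at 44.95, 57.8, 45.95 and 45.1 TPM in AVP-flox 1 to 4, and in AVP-flox;Cre 1 to 4 at 38.4, 38.8, 43.8 and 41.4 TPM. The groups did not overlap, but the distance between them was small. The log2 fold change of -0.24 did not pass the test (95% interval -0.46 to -0.03, limma adjusted p = 0.0922), and it was -0.16 without AVP-flox 2. Txnrd1 (ENSMUSG00000020250) stood at 57.0, 70.9, 49.0 and 52.6 TPM in AVP-flox 1 to 4, and in AVP-flox;Cre 1 to 4 at 53.6, 70.1, 47.2 and 50.2 TPM. These groups overlapped almost fully. The log2 fold change of -0.06 did not pass (95% interval -0.38 to 0.27, adjusted p = 0.813), and its ratio to Txn1, which encodes thioredoxin, was 0.237 ± 0.029 and 0.237 ± 0.025 (SD, n = 4 per group).

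Nqo1 (ENSMUSG00000003849), the quinone reductase often read as a reporter of NRF2 activity, stood at 110, 134, 95.3 and 103 TPM in AVP-flox 1 to 4, and in AVP-flox;Cre 1 to 4 at 52.7, 65.4, 47.8 and 48.8 TPM. The highest AVP-flox;Cre library was well under the lowest AVP-flox library. Its mean was 2.06-fold lower, at 53.7 ± 8.1 against 110 ± 17 TPM (log2 fold change -1.03, SE 0.13, limma adjusted p = 0.000388). Over 23 alternative fits the value ran from -1.12 to -0.93 and the adjusted p from 0.000196 to 0.00357.

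Nqo1 and Txnrd1 varied together from library to library within each group, although the first was lower in AVP-flox;Cre and the second was not called changed. The ratio of Nqo1 to Txnrd1, formed after their values were seen, was 1.93, 1.88, 1.95 and 1.96 in AVP-flox, against 0.985, 0.932, 1.01 and 0.973 in AVP-flox;Cre. After each group's mean was removed, the Pearson r of their log2 values over the 8 libraries was 0.996, the highest of the 36 pairs among the 9 members tested. Over all 36 pairs r ran from -0.86 to 0.996 with a median of 0.18, and it was 0.89 for Gclc and Gclm. Values of 1 library share its RNA, scaling and depth, so these r are a description.

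**Figure D4:**
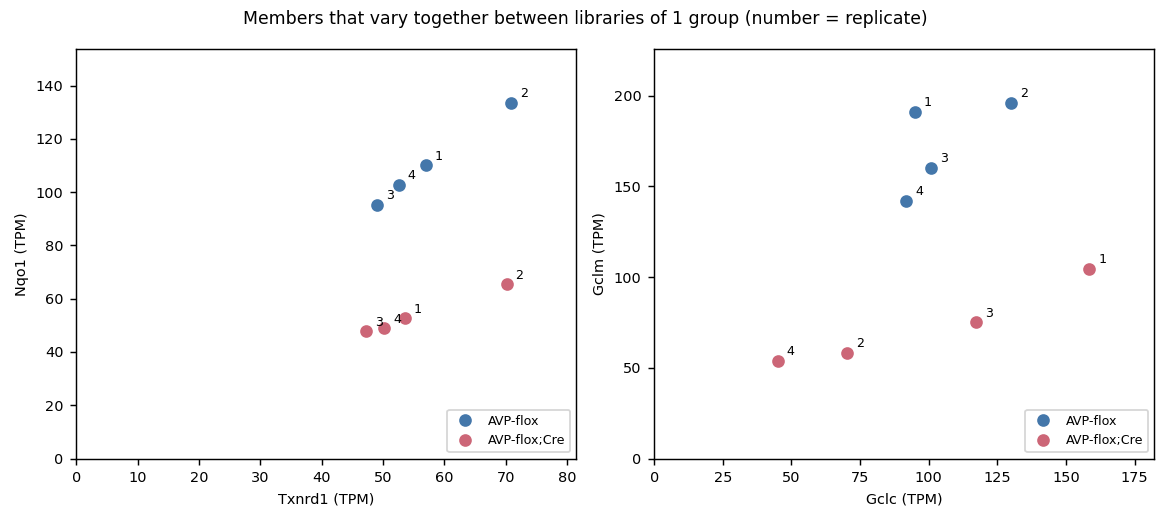
Nqo1 against Txnrd1 (left) and Gclm against Gclc (right) in TPM, for the AVP-flox (blue) and AVP-flox;Cre (red) libraries, numbered by replicate. Within each group the points of the left plot lie close to a line through 0, with a ratio near 1.93 in AVP-flox, against 0.975 in AVP-flox;Cre, and in both plots the red points lie lower on the y axis.

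Hmox1 (ENSMUSG00000005413), heme oxygenase 1, breaks down heme to biliverdin, iron and carbon monoxide. It stood at 11.8, 29.9, 13.6 and 9.29 TPM in AVP-flox 1 to 4, and in AVP-flox;Cre 1 to 4 at 11.7, 9.72, 12.5 and 8.63 TPM. AVP-flox 2 was far above the other 7 libraries, which lay between 8.63 and 13.6 TPM. The log2 fold change of -0.44 did not pass the test (95% interval -1.09 to 0.22, limma adjusted p = 0.311), and it was -0.11 without AVP-flox 2. Macrophages also express Hmox1. The summed level of 10 leukocyte markers was 186 TPM in AVP-flox 2, the lowest of all 8 libraries. Csf1r (7.39 TPM), Adgre1 (1.31), C1qa (6.82), C1qb (16.1) and Cd74 (64.4) were also at their lowest there. The other markers of that list were not, among them Cd68, at 17.5 TPM there within the 14.3 to 20.9 TPM of all 8. The part of macrophages in the Hmox1 value was not tested.

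AVP-flox 2 stood high across the members. Of the 9 tested members, 7 had their highest AVP-flox value in that library, all but Keap1 and Prdx1, while it held the highest AVP-flox value for 32.2% of all genes tested. Its median log2 difference from the AVP-flox mean was 0.28 over the 9 members and 0.04 over all genes tested. Mitochondrially encoded transcripts made up 2.35% of its TPM, while AVP-flox 1, 3 and 4 had 3.75% to 4.42%. The AVP-flox;Cre libraries had 2.40% to 2.85%. Umod and Slc12a1, thick limb markers, stood at 188 and 98.3 TPM in AVP-flox 2. The other AVP-flox libraries had 1139 to 1404 TPM of Umod and 577 to 682 TPM of Slc12a1. In AVP-flox;Cre, Umod was 377 to 521 TPM and Slc12a1 was 97.3 to 190 TPM. AVP-flox 2 was thus within the AVP-flox;Cre range for Slc12a1 and under it for Umod. Cldn16, of the same marker list, had its highest AVP-flox value in AVP-flox 2 (52.8 TPM). The part of these differences in the values of the members was not tested. The 4 members that were called remained called without that library.

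The other genes of the pathway were taken from a list of 68, of which 64 were tested. Of these, 18 fell (28.1%), 8 rose (12.5%) and 38 did not pass, with a median log2 fold change of -0.11. Over all genes tested 14.2% were lower and 13.1% higher. These shares also stand beside the counts given below for each group of the list. With median-of-ratios scaling 11 fell and 5 rose, while over all 19043 genes 2311 fell and 1856 rose. With quantile normalization 22 fell and 11 rose, while over all genes 2814 fell and 2637 rose. Without the libraries AVP-flox 2, AVP-flox;Cre 2 and AVP-flox;Cre 4, 8 fell and 7 rose, while over all genes 1182 fell and 1378 rose.

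Of 11 tested regulators and partners of NRF2, 0 passed in limma, though Btrc came close (log2 fold change 0.25, adjusted p = 0.0503). They include Nfe2l1, the related factor that controls proteasome genes (-0.17, adjusted p = 0.0574), the small MAF gene Mafg (-0.21, adjusted p = 0.113), Bach1, a repressor at the same DNA elements that stood at 2.04 ± 0.44 and 1.94 ± 0.66 TPM, and Cul3 (0.15, adjusted p = 0.369). Sqstm1, the autophagy receptor that can sequester KEAP1, stood at 965 ± 98 and 880 ± 40 TPM (adjusted p = 0.252). At an unadjusted limma p under 0.05, 5 of the 11 genes would count: Nfe2l1, Maff, Mafg, Btrc and Gsk3b. Over the 64 tested genes of the list, 38 would count at that threshold. The share over all genes tested was not computed there, and 27.3% passed even after adjustment. So this count is no result about the regulators.

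Enzymes that supply NADPH, the electron source of NQO1, TXNRD1 and glutathione reductase, held the widest falls of the list after Chac1. Me1, cytosolic malic enzyme, went from 157 ± 33 to 39.8 ± 14.1 TPM (log2 fold change -1.99, limma adjusted p = 0.000239). Idh1, cytosolic isocitrate dehydrogenase, went from 499 ± 120 to 209 ± 32 TPM (-1.23, adjusted p = 0.000701). Of the pentose phosphate genes, Tkt rose by 0.40 (adjusted p = 0.00481) and G6pdx fell by 0.30 (adjusted p = 0.0474). Of the 6 genes listed under NADPH supply, 3 fell (Me1, Idh1 and G6pdx), 1 rose (Tkt) and 2 did not pass (Pgd and Taldo1). Tkt and Taldo1 belong to the pentose phosphate pathway but do not make NADPH themselves.

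Glutathione and cystine genes had 4 lower, 1 higher and 5 not past of 10 tested. Gsr, glutathione reductase, fell by 0.43 (limma adjusted p = 0.0123). Gss, glutathione synthetase, fell by 0.37 (limma adjusted p = 0.0455), though its groups overlapped (exact permutation p = 0.0571). Chac1, which degrades glutathione, fell by 2.20. Of the transporters that export conjugates, Abcc4 went from 145 ± 13 to 86.3 ± 2.3 TPM (-0.74, limma adjusted p = 0.000157) and Abcc3 went the other way, from 11.5 ± 3.0 to 22.7 ± 1.7 TPM (0.96, adjusted p = 0.00231).

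Among 11 other thioredoxin and peroxiredoxin genes, 2 rose (18.2%), 2 fell (18.2%) and 7 did not pass. These shares are not far from the 13.1% higher and 14.2% lower of all genes tested. Prdx5 rose like Prdx1, from 1372 ± 136 to 2112 ± 207 TPM (0.62, limma adjusted p = 0.00118), and Prdx6 by 0.28 (adjusted p = 0.0230), a call that ended in 7 of 23 alternatives. Prdx2, Prdx3 and Prdx4 did not pass, at 0.08, -0.01 and -0.21. The mitochondrial thioredoxin gene Txn2 fell by 0.31 (adjusted p = 0.00549), and the call ended with median-of-ratios scaling (adjusted p = 0.0888) and without the 3 libraries that stood apart.

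Quinone, aldehyde and conjugation enzymes moved in both directions, with 4 lower (Nqo2, Ephx1, Gstm1 and Gstp1), 1 higher and 8 not past of 13 tested. Gstm1, the most abundant, went from 3749 ± 524 to 2025 ± 79 TPM (-0.88, limma adjusted p = 0.000196), while Gsta3 rose from 76.7 ± 22.0 to 204 ± 17 TPM (1.45, adjusted p = 0.000779). Glutathione S-transferase genes of 1 class are alike in sequence. RSEM is named in the submitters' processing notes without a version. TPM values do not show how it divided reads among such genes. In heme and iron handling 3 of 7 genes fell and 2 rose. The ferritin chains parted, with Ftl1 at 0.56 (adjusted p = 0.00216) and Fth1 at -0.23 (adjusted p = 0.0417), and Blvra, which reduces biliverdin, rose by 0.47 (adjusted p = 0.00283). The call of Ftl1 ended with median-of-ratios scaling (adjusted p = 0.0507), as did that of Tkt (0.0800), and the call of Blvra ended without the 3 libraries that stood apart (0.0516).

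Of 6 other antioxidant enzymes, Sod3, the extracellular superoxide dismutase, rose 3.05-fold from 8.46 ± 3.51 to 25.8 ± 2.1 TPM (limma adjusted p = 0.00113). The mitochondrial enzyme gene Sod2 fell by 0.41 (adjusted p = 0.00163) and Gpx1, a glutathione peroxidase, by 0.61 (adjusted p = 0.00235). Sod1, Cat and Gpx3 did not pass, at 0.08, -0.19 and 0.34.

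**Figure D5:**
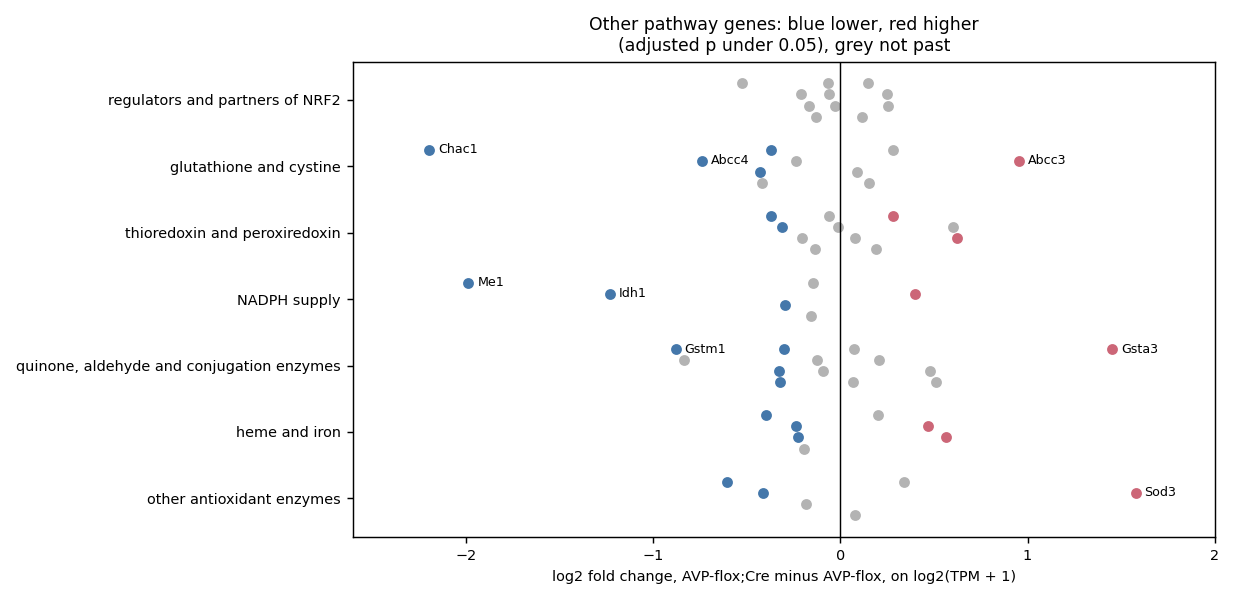
Log2 fold change (x axis, AVP-flox;Cre minus AVP-flox on the log2(TPM + 1) scale) of the 64 other pathway genes tested, by group (y axis, points are spread vertically for legibility). Blue genes were lower and red genes higher at an adjusted p under 0.05, and called genes beyond 0.7 in size are named. None of the 11 regulators passed, and Chac1 (-2.20) and Me1 (-1.99) lie farthest to the left.

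The called member with the smallest adjusted p was Prdx1. Among 9847 genes averaging 10 TPM or more, those whose log2 values over the 8 libraries were most like it were Ddx5 (r = 0.997), Irf7 (0.996), St6gal1 (0.995), Itm2a (0.995) and Rhoj (0.994). For all 5 the groups did not overlap, with AVP-flox;Cre higher, and a large part of such an r reflects that difference.

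Markers of the labelled cell type were present, with a summed level of 21802 to 26232 TPM in AVP-flox, against 14201 to 16574 TPM in AVP-flox;Cre over 9 collecting duct genes, among them Aqp2. Of these 9, 3 were called higher (Slc14a2, Cdh16 and Epcam) and 3 lower (Aqp2, Aqp3 and Aqp4), with a median log2 fold change of 0.08. Aqp2 had a mean of 15995 TPM and 6305 TPM, and the sum over the other 8 was 6631 to 8240 TPM in AVP-flox and 8758 to 10447 TPM in AVP-flox;Cre. Markers of other cell types were called as well. Beside these counts, 27.3% of all genes tested were called, 14.2% lower and 13.1% higher. The sum over 8 markers of fibroblasts, pericytes and smooth muscle was 137 to 189 TPM and 282 to 355 TPM, with 4 of 8 called higher. The sum over 8 markers of the papillary surface and urothelium was 1797 to 2820 TPM and 5012 to 5762 TPM, with 6 of 8 called higher and 1 lower (Trp63). Psca made up most of that sum, with a mean of 2059 TPM and 4836 TPM. Upk2 did not pass (limma adjusted p = 0.327). For 8 proximal tubule markers it was 42.8 to 678 TPM and 94.6 to 247 TPM, with 0 of 6 tested called, and Cubn and Slc5a12 had a mean under 1 TPM. Intercalated cell markers had 3 of 7 tested called higher (193 to 305 TPM and 271 to 362 TPM), and endothelial markers 2 higher and 2 lower of 6 (2240 to 2328 TPM and 1834 to 1909 TPM). Markers of the thick limb and distal tubule had 1 of 4 tested called higher, Cldn16 (sums 341 to 2119 TPM and 533 to 774 TPM). Their median log2 fold change was -0.45. Umod, at a mean of 973 TPM and 461 TPM, and Slc12a1, at 495 TPM and 154 TPM, were lower in AVP-flox;Cre without passing (limma adjusted p = 0.343 and 0.0876). The leukocyte markers had 1 of 8 tested called higher (186 to 448 TPM and 277 to 488 TPM), with Itgam and Cd3e under a mean of 1 TPM. That count is close to the share called higher over all genes. The part of these cell types in the values of the NRF2 genes was not tested.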

How the data were processed

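TPM values per Ensembl mouse gene were made by the authors and deposited in 1 table with 1 column per library. STAR and RSEM are named, per the submitters' processing notes, without versions. For genome build, annotation release and strand setting: not given in the sources used here. Per the labels, cDNA was made with the SMART-Seq HT kit and libraries with Nextera XT. WT columns stand for AVP-flox here, KO columns for AVP-flox;Cre, matched on replicate number. Columns summed to 999999.06 to 1000002.04. Depth is unknown, because TPM keeps no record of reads.

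Identifiers were summed by symbol (78298 identifiers, 77981 genes). Genes averaging 1 TPM or more were kept on the log2(TPM + 1) scale, and limma 3.58.1 in R 4.3.3 with a mean-variance trend compared the groups, two-sided, with Benjamini-Hochberg adjustment over 19043 genes and a threshold of 0.05. The fit was tested on simulated data. 5' GC content came from GENCODE M21 transcripts (87.4% of tested genes had a value, and all 10 members). The rule for named genes took all 10 members, up to 8 called genes per direction of the pathway list by smallest adjusted p, and the 5 genes most like the leading member. Other list genes, such as Gss, Gsr, G6pdx and Fth1, were named after their values were seen. Their single values in the alternatives were not examined. The members, lists, rules and alternatives were chosen with earlier results of these data known. The alternatives were a replicate block, other pseudocounts, filters, scalings and variance models, sample weights, sex pattern, unsummed identifiers, a threshold of 0.1, left-out libraries and, added later, the GC correction.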

Additional observations from a re-analysis of the deposited data

Results flagged for a closer look

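Among 26 named genes in 2 groups each (52 groups of 4 libraries), 1 library stood apart by Dixon's criterion of 0.829 for its gap over the group's range. Srxn1 was 57.84 TPM in AVP-flox 2, against 44.95 to 45.95 TPM in the other AVP-flox libraries (gap over range 0.922). Chance alone marks about 1 in 20 such groups.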

How the results depend on the processing

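The calls of Nfe2l2, Gclm, Nqo1 (lower) and Prdx1 (higher) and the absence of a call for Keap1, Gclc, Txnrd1, Srxn1 and Hmox1 held in all 23 alternative fits, where the adjusted p of the 4 called genes was at most 0.0376 (Prdx1, median-of-ratios scaling). At a threshold of 0.1, 5 members were called, Srxn1 being the fifth. Gclc turned to 0.079 without AVP-flox;Cre 4, and to 0.50 without 3 libraries (AVP-flox 2, AVP-flox;Cre 2 and AVP-flox;Cre 4). Txnrd1 turned to 0.049 without AVP-flox 2 and to 0.013 without AVP-flox;Cre 3. Leaving out 1 library at a time gave -0.52 to 0.079 for Gclc and -0.17 to 0.049 for Txnrd1. Hmox1 turned to 0.075 without the same 3. None of these passed the test. Without those 3 libraries 2560 genes were called (1182 lower and 1378 higher) and 15 of the pathway list (8 lower and 7 higher), where fewer samples were fitted. With no filter 3409 genes (1643 lower) and 17 of the list (10 lower) were called, over 67580 genes tested. With median-of-ratios scaling 4167 genes (2311 lower) and 16 of the list (11 lower and 5 higher) were called, and the cause was not tested. Other settings called more of the list. Quantile normalization gave 5451 genes and 33 of the list, and a filter at 5 TPM gave 4714 genes and 32 of the list. The replicate numbers did not pair the libraries (r of same-numbered deviations 0.001 to 0.095), and with a replicate block 4431 genes, 25 of the list and the same count of 4 members were called. The depth is unknown, and Slc7a11, with a mean under 1 TPM in both groups, was not tested.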
